A study of Mus musculus with 4 samples.

Results

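The TNF superfamily comprises the ligands and receptors through which lymphocytes exchange costimulatory, inflammatory and death signals. Its members were taken as all genes whose symbol is Tnfsf or Tnfrsf with a number, together with Tnf, Lta, Ltb, Ltbr, Cd40lg, Cd40, Cd27, Cd70, Eda2r and Ngfr, and with Fas and Fasl left out. This gave 41 genes of the 18560 in the expression table, 16 ligands and 25 receptors. The rule reads gene symbols and no expression values.

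Expression was measured by RNA-seq in 4 libraries of CD4+ T cells from mouse spleen, strain C57BL/6. Naive cells had been stimulated with αCD3/CD28, antibodies that engage the T cell receptor complex and the costimulatory receptor CD28, which yields Th0 cells, activated helper cells not steered to an effector type. The 2 libraries labelled wild type are called WT replicates 1 and 6, and the 2 libraries labelled Setd2-CD4 cre are called KO replicates 9 and 12. Setd2 encodes the enzyme that trimethylates lysine 36 of histone H3, and a Cre recombinase driven by Cd4 acts in developing T cells, before the CD4 and CD8 lineages separate. Ages are not given in the labels used here, nor whether wild type mice carried the Cre or a floxed allele. The stimulation time is 3 days in the treatment labels and 2 days in the design text, and the titles end in 48. The labels do not state that the libraries of a group came from different animals. If they did not, the p-values here reflect technical spread alone.

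In a T cell response, ligands and receptors of this family are switched on in turn. Receptors such as OX40 (Tnfrsf4), 4-1BB (Tnfrsf9) and GITR (Tnfrsf18) appear on activated T cells and prolong the response through adaptor proteins of the TRAF family and NF-κB transcription factors. Ligands such as CD40 ligand and lymphotoxin are made by the T cells themselves and act on B cells, dendritic cells and stroma. A second branch of receptors carries a death domain and can start apoptosis, and some receptors lack a signalling part and act as decoys.

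Levels are given as CPM (counts relative to the TMM-normalized library total) where libraries are compared for one gene, and as FPKM (scaled to gene length and library size) where genes are compared with each other. Total counts ran from 17284576 to 20418736. The targeted gene, Setd2, had 157 and 174 CPM in WT and 127 and 113 CPM in KO libraries (log2 fold change -0.47, SE 0.21, edgeR adjusted p = 0.421), a count over all exons that does not check the deletion. With the trend on gene length removed its log2 fold change was -0.088. Cd4 was at 464 and 575 CPM in WT against 404 and 445 CPM in KO libraries, and Cd3e at 315 and 363 against 268 and 239 CPM. The list of 6 CD4 T cell markers held Cd4 and also Cd3d, Cd3e, Cd3g, Cd2 and Cd5, which are not particular to CD4 T cells. Of the 6, 5 were below both WT libraries in both KO libraries, where 24.3% of all tested genes were, and Cd2 overlapped. The 6 genes summed to 2295 and 2350.4 against 1709.8 and 2070.4 CPM. Their part in the levels of the members was not tested. Markers of other cells were present too. The 6 B cell markers summed to 265 and 181 CPM in WT against 193 and 338 CPM in KO libraries. The 6 markers of antigen-presenting cells summed to 576 and 461 against 546 and 1068 CPM, mostly from Cd74. Among them H2-Aa, H2-Ab1 and H2-Eb1 were above both WT libraries in both KO libraries. Flt3 was below both WT libraries in both, and Cd74 and Itgax overlapped. The sum of Cd8a and Cd8b1 was 260.0 and 330.4 against 432 and 323 CPM. The 5 macrophage markers summed to at most 20.5 CPM in any library, with Adgre1 at 0.202 to 0.361 CPM. The 4 natural killer cell markers summed to 11.9 and 15.4 CPM in WT against 34.6 and 26.4 CPM in KO libraries, mostly from Eomes. Eomes, Klrb1c and Klre1 were above both WT libraries in both KO libraries, and Ncr1 overlapped. In these bulk libraries fewer cells of a type and less RNA per cell cannot be told apart.

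Of the 41 members, 32 had enough counts for the test (12 ligands and 20 receptors). None of the 32 passed at an edgeR adjusted p under 0.05, where 0.00780% of all 12816 tested genes did (0.00780% higher and 0% lower in KO). The lowest adjusted p among members was 0.261, for Ltb. At an unadjusted edgeR p under 0.05, 4 members were higher in KO libraries, where 6.23% of all tested genes were, and 6 were lower, where 5.73% were. Together they were 31.25% of the tested members, against 11.96% of all tested genes. DESeq2 on the same counts called 1 member, Ltb, against 1.53% of the genes it could adjust, and limma-voom called none. In 14 of the 32 the 2 groups did not overlap, a share of 43.8% against 49.7% of all tested genes. Both KO libraries lay above both WT libraries in 7 (25.4% of all tested genes) and below in 7 (24.3%). Members thus lay on both sides, and the share without overlap was near that of the whole table. Only members with enough counts were tested, and the members were chosen with earlier results of these data known. These counts and shares thus describe the tested members and support no more. With 2 libraries against 2, an exact permutation test of a single value cannot give a p below 0.333.

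Promoter sequences are shown for the member of smallest p in each direction, for ligands and for receptors, since these are the genes whose transcripts stood furthest from their error. RefSeq (GRCm38.p6) gave a window from 250 bases before to 50 bases after the start for 31 of the 41 members. Each is printed 5′ to 3′ on the strand of its gene, with capitals on matches, on either strand, to GGG and CC with NNNNN between them, the outline of an NF-κB site. Overlapping matches run together. Ltb lies at chr17:35194257-35194556 on the plus strand, Tnfsf14 at chr17:57194132-57194431 on the minus strand, and Tnfrsf23 at chr7:143685826-143686125 on the minus strand. Tnfrsf9 has 2 starts on the plus strand, at chr4:150919905-150920204 and at chr4:150927749-150928048.
Ltb (lower in KO): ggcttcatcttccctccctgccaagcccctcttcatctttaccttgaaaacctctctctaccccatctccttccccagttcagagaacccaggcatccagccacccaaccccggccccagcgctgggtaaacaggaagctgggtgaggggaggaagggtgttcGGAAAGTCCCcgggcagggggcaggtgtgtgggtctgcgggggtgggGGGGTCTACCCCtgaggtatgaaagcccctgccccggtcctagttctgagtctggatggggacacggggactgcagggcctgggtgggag
Tnfsf14 (higher in KO): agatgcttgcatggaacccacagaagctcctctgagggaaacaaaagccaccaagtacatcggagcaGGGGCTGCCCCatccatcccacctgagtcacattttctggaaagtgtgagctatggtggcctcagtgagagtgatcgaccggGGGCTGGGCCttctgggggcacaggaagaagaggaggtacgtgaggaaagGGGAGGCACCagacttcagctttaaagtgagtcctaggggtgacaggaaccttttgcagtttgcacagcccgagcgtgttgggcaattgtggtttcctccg
Tnfrsf9, first start (higher in KO): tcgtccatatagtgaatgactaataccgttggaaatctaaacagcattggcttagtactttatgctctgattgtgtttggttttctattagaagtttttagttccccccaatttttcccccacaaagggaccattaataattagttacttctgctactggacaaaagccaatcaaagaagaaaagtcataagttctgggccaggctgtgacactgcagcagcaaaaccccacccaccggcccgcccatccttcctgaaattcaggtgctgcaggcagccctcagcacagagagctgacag
Tnfrsf9, second start (higher in KO): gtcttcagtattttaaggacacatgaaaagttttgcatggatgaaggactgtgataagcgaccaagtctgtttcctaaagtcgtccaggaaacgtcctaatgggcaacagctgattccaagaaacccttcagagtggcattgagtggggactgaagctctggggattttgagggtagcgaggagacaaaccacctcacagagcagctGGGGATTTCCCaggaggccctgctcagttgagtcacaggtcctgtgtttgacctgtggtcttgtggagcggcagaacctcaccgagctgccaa
Tnfrsf23 (lower in KO): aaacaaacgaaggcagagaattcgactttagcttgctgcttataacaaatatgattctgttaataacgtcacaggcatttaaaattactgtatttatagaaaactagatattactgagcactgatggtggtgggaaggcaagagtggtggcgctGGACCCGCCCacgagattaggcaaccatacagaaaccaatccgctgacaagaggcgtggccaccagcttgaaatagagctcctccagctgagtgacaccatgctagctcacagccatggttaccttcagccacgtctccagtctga

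The outline was present in the windows of Ltb, Tnfsf14 and Tnfrsf23 and in the second window of Tnfrsf9, so genes that were higher and genes that were lower both held it. It occurred in 19 of 25 windows of tested members (76.0%) and in 50.8% of all 32851 windows of that length in the RefSeq table. A match to these letters is a description of the sequence and not a measured binding site. TATAAA on either strand was found in 4 of the 25 windows of tested members and in 13.6% of all windows, with the window of Tnfrsf23 as the only one of the 5 printed that held it.

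**Figure D1:**
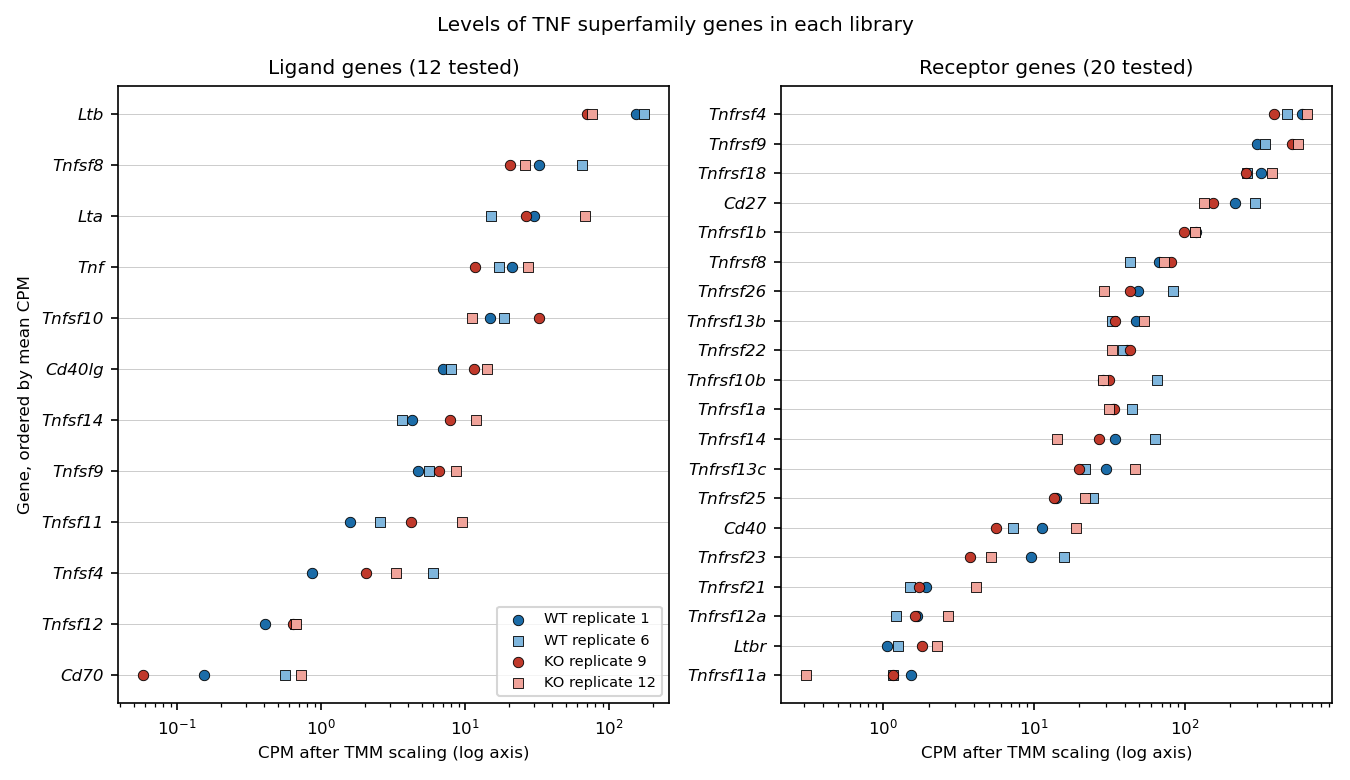
CPM (log axis) of the 12 tested ligand genes and 20 tested receptor genes in each library, with WT in blue and KO in red. CPM is not corrected for gene length, so libraries are to be compared along a line; for Ltb the WT libraries sit at 154 and 174 CPM and the KO libraries at 70.1 and 75.8 CPM.

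Per gene length most ligand transcripts came from the lymphotoxin locus, Tnf, Lta and Ltb, which lie side by side on chromosome 17 (GRCm38.p6, from 35194507 to 35205578). Ltb encodes lymphotoxin beta, the membrane anchor with which lymphotoxin alpha reaches the receptor encoded by Ltbr. It stood at 154 and 174 CPM in WT and at 70.1 and 75.8 CPM in KO libraries, or 164 ± 14.1 against 73.0 ± 4.03 CPM (SD, n = 2 per group). Both KO libraries were thus well below both WT libraries, while the libraries within each group lay close together. The level was 2.25-fold lower in KO (log2 fold change -1.17, SE 0.21, edgeR adjusted p = 0.261). In DESeq2 the adjusted p was 0.000335, and in edgeR without a filter on low counts it was 0.0310. With any single library left out the log2 fold change of Ltb lay between -1.24 and -1.08, with edgeR adjusted p between 0.0551 and 0.681.

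Lta encodes the secreted lymphotoxin alpha. It stood at 30.0 and 15.1 CPM in WT and at 26.4 and 67.4 CPM in KO libraries (log2 fold change 1.06, SE 0.49, edgeR adjusted p = 0.423). KO replicate 12 was the highest library, and KO replicate 9 lay between the WT libraries. Without KO replicate 12 the log2 fold change was 0.22. Tnf, the founding cytokine of the family, stood at 21.1 and 17.1 CPM against 11.8 and 27.5 CPM (0.04, SE 0.39), with the KO libraries on either side of the WT libraries. The 3 neighbouring genes thus showed different patterns, and the FPKM ratio of Ltb to Lta was 6.55 and 14.7 in WT against 3.38 and 1.43 in KO libraries. That ratio is formed within a library and does not depend on library scaling.

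Within each library the summed FPKM of all 16 ligands was 209 and 249 in WT against 130.0 and 173 in KO libraries. These sums carry no TMM scaling and serve as the base of the shares, not as a common level of the ligands. Ltb alone held 143 and 170 FPKM in WT against 64.8 and 66.5 FPKM in KO libraries. It made up 68.4% and 68.5% of the sum in WT and 49.8% and 38.5% in KO libraries. The share of Lta was 10.5% and 4.65% against 14.7% and 26.9%. The share of Cd40lg was 2.70% and 2.74% against 7.12% and 6.29%. None of these 3 shares overlapped between groups. The shares of Tnfsf9, Tnfsf14, Tnfsf11 and Tnfsf12 were also higher in both KO libraries. Those of Tnfsf18 and Tnfsf8 were lower in both, for Tnfsf8 narrowly (6.903% and 12.1% against 6.898% and 6.35%). The shares of all other ligands overlapped. The shares of a library are parts of one sum, so a lower level of Ltb by itself raises the shares of the other ligands. A higher share is thus not a higher level, and in CPM Lta overlapped between groups. In every library the lymphotoxin locus as a whole still held most of the ligand transcripts, at 85.0% and 77.5% in WT and 70.1% and 74.5% in KO libraries.

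**Figure D2:**
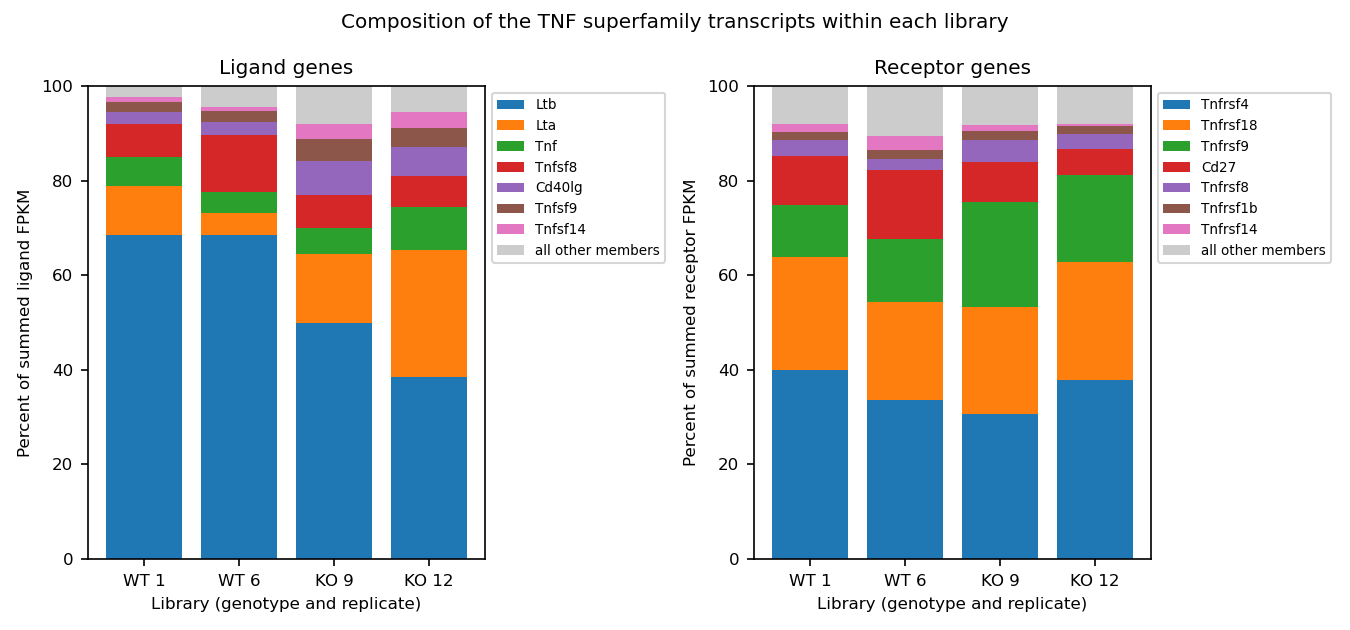
Share (percent) of the summed FPKM of all ligand genes and of all receptor genes that each named gene held in each library. Ltb fills 68.4% and 68.5% of the ligand bar in WT and 49.8% and 38.5% in KO libraries, and Tnfrsf9 fills 11.1% and 13.2% of the receptor bar in WT and 22.1% and 18.3% in KO libraries.

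Among the costimulatory ligands, Tnfsf14 and Cd40lg were higher and Tnfsf8 lower in both KO libraries. Tnfsf14 encodes LIGHT, a ligand of the receptors HVEM (Tnfrsf14) and lymphotoxin beta receptor. Its level was 4.27 and 3.64 CPM in WT and 7.89 and 11.9 CPM in KO libraries (84, 72, 136 and 230 counts). That is a 2.50-fold difference (log2 fold change 1.32, SE 0.36, edgeR adjusted p = 0.366). Cd40lg, on the X chromosome, encodes the ligand with which helper T cells stimulate B cells and dendritic cells through CD40. WT libraries had 6.97 and 7.99 CPM of it and KO libraries 11.5 and 14.2 CPM (0.78, SE 0.29, edgeR adjusted p = 0.413).

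Tnfsf8 encodes the CD30 ligand. It stood at 32.5 and 64.4 CPM in WT and at 20.4 and 26.1 CPM in KO libraries (log2 fold change -1.06, SE 0.34, edgeR adjusted p = 0.395). WT replicate 6 was the highest library by far, and without it the log2 fold change was -0.48. Without WT replicate 1 it was -1.46, with an edgeR adjusted p of 0.0285. Tnfsf9, which encodes the 4-1BB ligand, was at 4.68 and 5.56 CPM against 6.61 and 8.67 CPM (0.58, SE 0.35). The groups did not overlap, but the difference was under 2 SE.

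Other costimulatory ligands had few counts. Tnfsf4, which encodes the OX40 ligand, ranged from 0.865 CPM in WT replicate 1 to 6.02 CPM in WT replicate 6, with the KO libraries at 2.03 and 3.30 CPM between them. Cd70, the ligand of CD27, had 3 and 11 counts in WT and 1 and 14 counts in KO libraries. Tnfsf15 (the ligand of Tnfrsf25) and Tnfsf18 (the GITR ligand) had at most 15 and 5 counts in any library and were not tested.

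Of the remaining ligands, Tnfsf11 had the largest log2 fold change of all 32 tested members. It encodes RANKL, known from osteoclast formation and made by activated T cells. Its level was 1.58 and 2.58 CPM in WT and 4.23 and 9.55 CPM in KO libraries (log2 fold change 1.73, SE 0.53, edgeR adjusted p = 0.386). KO replicate 12 was the highest library, with 185 counts against 31 and 51 in WT and 73 in KO replicate 9, and without it the log2 fold change was 1.02. Tnfsf10, which encodes the death ligand TRAIL, was at 14.8 and 18.6 CPM against 32.4 and 11.2 CPM (0.39, SE 0.46), so that the KO libraries lay on both sides of the WT libraries. Tnfsf12, which encodes TWEAK, had 8 to 13 counts. The B cell survival factors APRIL (Tnfsf13) and BAFF (Tnfsf13b) had at most 2 and 18 counts in any library and were not tested. RefSeq places Tnfsf12 and Tnfsf13 next to each other on chromosome 11 with a readthrough gene, Tnfsfm13, over both, so their few reads cannot be assigned with certainty.

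Over the 12 tested ligands the median log2 fold change was 0.34, with 9 positive and 3 negative, beside a median of -0.0024 over all tested genes. The SD of this ligand median between replicates was also 0.34. The ligands were shorter than the table, with a median effective length of 1627 bases against 2828 for all tested genes. With the length trend removed the ligand median was 0.22. KO replicate 12 exceeded KO replicate 9 in 11 of the 12, against 50.2% of all tested genes. Leaving out a library moved the ligand median from 0.23 (without WT replicate 1) to 0.69 (without WT replicate 6).

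The receptor transcripts were dominated by 4 costimulatory receptors of T cells. By FPKM the order in WT replicate 1 was Tnfrsf4 at 520.5, Tnfrsf18 at 312, Tnfrsf9 at 144 and Cd27 at 134. In WT replicate 6 Cd27 (190.4) was above Tnfrsf9 (171), and in the KO libraries Tnfrsf9 (243 and 256) was far above Cd27 (94.2 and 78.8). The 7 costimulatory receptors together held between 88.7% and 91.3% of the summed receptor FPKM in each library, a total that differed little between libraries.

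Tnfrsf9 encodes 4-1BB, an inducible receptor that sustains activated T cells. Its level was 301 and 341 CPM in WT and 509 and 565 CPM in KO libraries, or 321 ± 28.0 against 537 ± 39.5 CPM (SD, n = 2 per group). Both KO libraries stood above both WT libraries, by more than the gap within either group. The log2 fold change was 0.74 (SE 0.21), a 1.67-fold difference (adjusted p = 0.369 in edgeR and 0.0638 in DESeq2). It ranged from 0.66 to 0.83 with a library left out.

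Cd27 encodes a costimulatory receptor that naive T cells already carry. It was at 215 and 290.2 CPM in WT and at 154 and 134 CPM in KO libraries, or 253 ± 52.9 against 144 ± 14.5 CPM (SD, n = 2 per group). Both KO libraries lay below both WT libraries, 1.76-fold on average (log2 fold change -0.81, SE 0.24, edgeR adjusted p = 0.384). The FPKM ratio of Tnfrsf9 to Cd27 was 1.08 and 0.901 in WT and 2.57 and 3.25 in KO libraries.

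Tnfrsf14 encodes HVEM, which binds LIGHT and lymphotoxin alpha and also the inhibitory receptor BTLA. It stood at 34.6 and 63.3 CPM in WT against 26.9 and 14.3 CPM in KO libraries (log2 fold change -1.25, SE 0.39, edgeR adjusted p = 0.394). The groups did not overlap, but libraries of one group differed widely, by 0.90 on the log2 scale between the KO libraries. Without WT replicate 6 the log2 fold change was -0.75, and without WT replicate 1 it was -1.61 with an edgeR adjusted p of 0.0341. The FPKM ratio of Tnfrsf14 to Tnfsf14 was 8.89 and 18.6 in WT against 3.67 and 1.31 in KO libraries.

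OX40 and GITR, the 2 most abundant receptor genes per length, overlapped between groups. Tnfrsf4 was at 599 and 478 CPM in WT and at 389 and 644 CPM in KO libraries (log2 fold change -0.06, SE 0.28). Tnfrsf18 was at 318 and 259 CPM against 254 and 375 CPM (0.13, SE 0.26). For both, KO replicate 9 was the lowest library and KO replicate 12 the highest. The 2 genes lie 9709 bases apart on chromosome 4, and their FPKM ratio (Tnfrsf18 over Tnfrsf4) ran only from 0.599 to 0.739. Both genes are also high in regulatory T cells. The regulatory T cell markers Foxp3 (90.3 and 63.0 against 20.5 and 39.4 CPM), Lrrc32 (95.7 and 46.8 against 24.2 and 38.8 CPM) and Gpr83 (24.1 and 12.1 against 1.68 and 4.44 CPM) were lower in both KO libraries, whereas Il2ra, Ctla4 and Ikzf2 overlapped between groups. All 6 markers summed to 3281 and 2009.8 against 2896 and 2591 CPM. Most of this sum came from Il2ra and Ctla4, so it does not follow the levels of Foxp3, Lrrc32 and Gpr83. Their part in the levels of the receptors was not tested.

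CD30 (Tnfrsf8) was at 67.6 and 43.1 CPM in WT and at 81.0 and 73.1 CPM in KO libraries (log2 fold change 0.48, SE 0.26, edgeR adjusted p = 0.455). The log2 fold change was 0.19 without WT replicate 6, 0.85 without WT replicate 1 and 0.30 with the length trend removed. The FPKM ratio of receptor to ligand was 2.99 and 0.962 in WT against 5.74 and 4.02 in KO libraries. Tnfrsf25, which encodes the death domain receptor DR3, overlapped between groups (13.9 and 24.6 against 13.6 and 21.7 CPM).

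**Figure D3:**
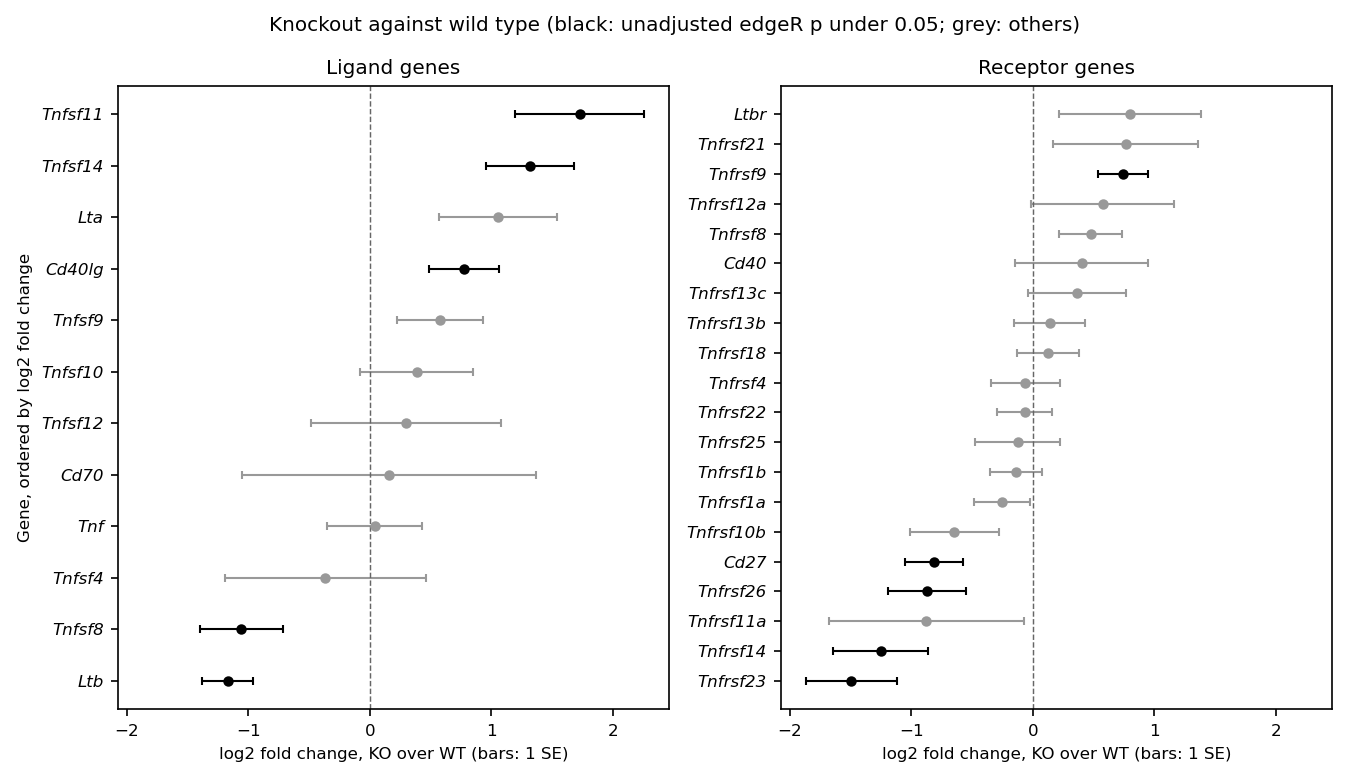
Log2 fold change of KO over WT with its SE for each tested member, ligands left and receptors right. Black marks the members at an unadjusted edgeR p under 0.05, 4 higher and 6 lower, from Tnfrsf23 at -1.49 to Tnfsf11 at 1.73, and no member passed after adjustment over all tested genes.

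The receptors for TNF itself differed by less than 2 SE. Tnfrsf1a, the receptor with a death domain found on most cells, was at 33.3 and 44.5 CPM in WT and at 34.0 and 31.4 CPM in KO libraries (log2 fold change -0.25, SE 0.23). Tnfrsf1b, the TNF receptor of lymphocytes, was at 119 and 116 CPM against 97.9 and 116 CPM (-0.14, SE 0.21). Of the pair it was the more abundant in every library, by 1.14 to 1.61 times in FPKM. Ltbr, which T cells themselves largely lack and which serves stromal and myeloid cells, had only 21 and 25 counts in WT and 31 and 44 in KO libraries. The groups did not overlap for Ltbr, and the difference was under 2 SE (0.80, SE 0.59).

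Receptors known from B cells and antigen-presenting cells overlapped between groups. Cd40 was at 11.3 and 7.23 CPM in WT and at 5.57 and 18.9 CPM in KO libraries, and Tnfrsf13c, which encodes the BAFF receptor, at 30.0 and 21.7 against 19.7 and 47.0 CPM. Tnfrsf13b, which encodes TACI, was at 47.1 and 32.9 against 34.3 and 53.7 CPM. For all 3, KO replicate 12 was the highest library and WT replicate 1 the second. The B cell markers differed among themselves. Cd79b, at 42.1 and 29.4 against 34.2 and 70.8 CPM, and Ms4a1, at 41.8 and 18.3 against 24.9 and 44.9 CPM, were also highest in KO replicate 12 and next in WT replicate 1, and so was Cd79a, at 45.6 and 31.7 against 42.9 and 68.6 CPM. Pax5, at 52.0 and 40.1 against 33.1 and 33.0 CPM, was lowest in KO replicate 12, and Cr2, at 2.75 and 2.33 against 1.04 and 2.37 CPM, was highest in WT replicate 1. The part of B cells and antigen-presenting cells in these receptor levels was not tested. Tnfrsf17, which encodes the plasma cell receptor BCMA, had 1 count in 1 library and none in the other 3.

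Receptors with a death domain and decoy receptors included the lowest log2 fold change of the family. Tnfrsf22, Tnfrsf23 and Tnfrsf26 are mouse genes that lie side by side on chromosome 7 (143607685 to 143686436), and the first 2 encode decoy receptors for TRAIL. Tnfrsf23 was at 9.56 and 15.8 CPM in WT and at 3.77 and 5.21 CPM in KO libraries (log2 fold change -1.49, SE 0.37, edgeR adjusted p = 0.329, DESeq2 adjusted p = 0.0574). Tnfrsf26 was at 48.6 and 83.9 CPM against 43.4 and 29.2 CPM (-0.87, SE 0.32). Tnfrsf22, between them, was at 41.0 and 38.9 CPM against 43.4 and 33.0 CPM (-0.07, SE 0.23). So the outer genes of the cluster were lower in both KO libraries and the middle one overlapped. All 3 had counts that were not whole numbers (by more than 1e-06), as estimates have where reads match more than one gene, so their separate values are uncertain. The same holds for 12 other members, among them Tnfrsf9, Cd27, Tnfrsf14, Tnfrsf1b, Tnfrsf10b, Tnfrsf13c and Tnfsf10. Without WT replicate 6 the log2 fold change of Tnfrsf26 was -0.42. Without WT replicate 1 Tnfrsf23 passed in edgeR (adjusted p = 0.0383).

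Tnfrsf10b, the mouse receptor for TRAIL that carries a death domain, was at 28.7, 31.4 and 28.5 CPM in WT replicate 1 and the KO libraries and at 65.0 CPM in WT replicate 6. Its log2 fold change of -0.65 (SE 0.37) rested on that library and was 0.06 without it. Tnfrsf21, which encodes the death receptor DR6, was at 1.93 and 1.52 against 1.74 and 4.13 CPM. Of the other receptors, Tnfrsf12a (the TWEAK receptor) and Tnfrsf11a (the RANKL receptor RANK) were at no more than 2.68 and 1.53 CPM, and neither differed beyond 2 SE. Tnfrsf11b (osteoprotegerin, the soluble decoy of RANKL), Ngfr, Tnfrsf19 and Eda2r were not tested, with at most 10, 1, 1 and 13 counts in a library.

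Over the 20 tested receptors the median log2 fold change was -0.06, with 9 positive and 11 negative. With a library left out it ran from -0.25 (without KO replicate 12) to 0.20 (without KO replicate 9). The receptors thus had no common direction. Among members, Tnfrsf4, Tnfrsf13b and Tnfrsf12a overlap other genes of the table (Sdf4, Usp22 and Hcfc1r1), and the strand setting of the counting is not given, so reads of these pairs may be mixed.

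**Figure D4:**
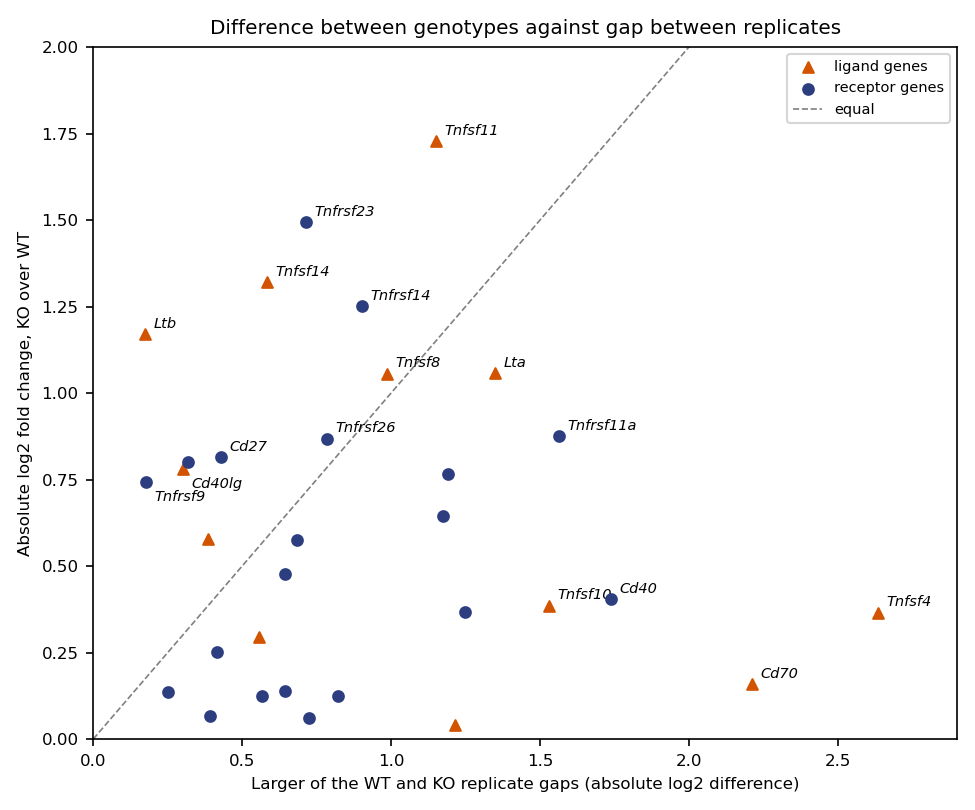
Absolute log2 fold change of each tested member (vertical) against the larger of its 2 replicate gaps (horizontal), the absolute log2 difference between the 2 WT or the 2 KO libraries. Ltb and Tnfrsf9 lie far above the dashed line of equality, with gaps of 0.17 and 0.18, whereas Tnfsf4, Cd70 and Cd40 lie far below it.

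Members differed in how closely their replicates lay together. In 12 of the 32 tested members (37.5%) the log2 difference between genotypes was larger than both replicate gaps, against 33.0% of all tested genes. The 12 were Ltb, Cd40lg, Tnfsf8, Tnfsf9, Tnfsf14 and Tnfsf11 among ligands and Cd27, Tnfrsf9, Tnfrsf14, Ltbr, Tnfrsf23 and Tnfrsf26 among receptors. The median gap was 0.43 between the WT libraries and 0.58 between the KO libraries for members, and 0.28 and 0.33 for all tested genes. The members were thus more variable between replicates than the table as a whole. Their median absolute log2 fold change was also larger (0.58 against 0.33). With 2 libraries per group, wider replicate gaps by themselves enlarge the absolute log2 fold change, so this is not a separate trait of the members. Members were not matched to the table on expression level.

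Gene length moved with the fold changes in the whole table. The median log2 fold change was 0.28 for the 1357 tested genes with an effective length of 1000 to 1500 bases and -0.33 for the 2179 genes over 5000 bases. Members were mostly short, with a median effective length of 1807 bases against 2828 for all tested genes. Ltb, at 1078 bases, was lower in KO although genes of its length lay on the higher side, and with the length trend removed its log2 fold change was -1.45. For Tnfrsf9 the value became 0.64, for Tnfsf14 1.18, for Cd40lg 0.52 and for Cd27 -0.99, each with the same sign as before.

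Signalling genes at and below the receptors stood near the shares of the whole table. Of 40 tested genes (30 adaptors and kinases at the receptors, 8 NF-κB factors and inhibitors, and 2 sheddases), none passed after adjustment in edgeR or DESeq2. At an unadjusted edgeR p under 0.05 there was 1 higher (6.23% of all tested genes) and 4 lower (5.73%), together 12.5% of the list against 11.96% of the table. The groups did not overlap in 55% of the list against 49.7%, and the median log2 fold change was -0.08. Traf3, which restrains non-canonical NF-κB signalling below many of these receptors, was at 116 and 112 CPM in WT and at 80.3 and 76.9 CPM in KO libraries (-0.54, SE 0.20). Map3k14, the kinase that Traf3 holds at a low level, was at 70.7 and 93.6 against 54.0 and 58.4 CPM (-0.55, SE 0.23). Relb, a subunit of the same branch, was at 69.6 and 95.4 against 55.0 and 58.1 CPM (-0.55, SE 0.23), and Cyld, a deubiquitinase that limits the signal, at 178 and 236 against 145 and 111 CPM (-0.69, SE 0.25). Nfkbib, an inhibitor of NF-κB, was the 1 higher gene, at 54.8 and 45.8 against 62.8 and 93.0 CPM (0.63, SE 0.26). With the length trend removed, the values were -0.21 for Traf3, -0.39 for Map3k14, -0.63 for Relb, -0.34 for Cyld and 0.39 for Nfkbib. Without KO replicate 12 the value for Nfkbib was 0.32, and without WT replicate 6 it was -0.30 for Relb and -0.33 for Map3k14. The feedback gene Tnfaip3 (107 and 159.7 against 109.7 and 102 CPM), the adaptor gene Traf1 (199 and 288 against 299.5 and 312 CPM), Nfkb2 (164 and 183 against 169 and 222 CPM) and the sheddase gene Adam17 (78.3 and 60.1 against 68.9 and 65.0 CPM) differed by less than 2 SE.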

How the data were processed

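The deposited table held, per library, an expected count per gene, which is an estimate and need not be whole, and an expression value. The submitters' processing notes name Bowtie2 and RSEM and the builds GRCm38.p6 and mm10, with no versions, roles or order. The header states no unit for the deposited expression value. It was taken as FPKM made by the authors, because count over value gave nearly the same gene length in every library. Effective lengths were computed from it.

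Rounding turned the expected counts into integers. A filter on low counts (filterByExpr, minimum count 10) left 12816 genes, which were scaled by TMM. KO was compared with WT by the two-sided quasi-likelihood test of edgeR 4.0.16 (robust, R 4.3.3) with Benjamini-Hochberg adjustment over all tested genes at 0.05. SE is the log2 fold change over the root of F. Alternatives used DESeq2 1.42.0, limma-voom (limma 3.58.1), other scaling factors, other filters, a length trend (loess, span 0.5) removed, and each library left out. Replicate gaps are log2 differences of CPM plus 0.125. Scripts were tested on simulated data. Members and lists were chosen with earlier results of these data known. Every tested member could be named; of the signalling list, up to 4 of smallest p in each direction plus Tnfaip3, Traf1, Nfkb2 and Adam17. FPKM ratios other than those of a ligand with its receptor were chosen after values were seen. Counts of each library ranged from 17284576 to 20418736. The value of 1 marker gene is not reported here.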

Additional observations from a re-analysis of the deposited data

How the results depend on the processing

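Of 41 genes named with a log2 fold change (32 members and 9 signalling genes), 26 kept one direction under every alternative that gave them a value, among them Ltb, Tnfsf8, Tnfsf11, Tnfsf14, Cd40lg, Cd27, Tnfrsf9, Tnfrsf14, Tnfrsf23 and Tnfrsf26. A minimum count of 50 gave no value for Cd70, Ltbr, Tnfrsf11a, Tnfrsf12a, Tnfrsf21 and Tnfsf12. The count of all genes called was 1 higher and 0 lower. It became 88 and 97 in DESeq2, 48 and 33 with no filter on low counts, and 1 lower with the length trend removed. With a library left out it ran from 0 to 113 higher and from 0 to 81 lower, with 113 and 81 without WT replicate 1, 31 and 14 without WT replicate 6, 6 and 2 without KO replicate 9, and 0 and 0 without KO replicate 12. The count of members called, 0, became 1 in DESeq2 and 1 with no filter on low counts (Ltb both times). It ran from 0 to 3 with a library left out, the 3 being Tnfrsf23, Tnfsf8 and Tnfrsf14 without WT replicate 1. With a library left out the ligand median log2 fold change ran from 0.23 to 0.69, the receptor median from -0.25 to 0.20 and the signalling median from -0.13 to -0.076. The signalling median was -0.16 with library size alone. At an unadjusted p under 0.05, leaving out a library gave 1 to 4 higher and 1 to 2 lower ligands, 1 to 3 higher and 2 to 5 lower receptors, and 0 to 2 higher and 0 to 4 lower signalling genes. Signalling genes higher at that p numbered 0 with library size alone and 0 with the length trend removed, and those lower numbered 1 with the length trend removed.

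Each gene whose direction reversed had a log2 fold change within 1 SE of 0, except Tnfrsf10b, within 2 SE. Tnf was -0.048 with library size alone, -0.061 in limma-voom and -0.16 with the length trend removed. Cd70 was -0.28 in limma-voom and -0.28 with the length trend removed, and Tnfsf4 was 0.19 in limma-voom. With the length trend removed Tnfrsf1b was 0.085, Tnfrsf22 0.064, Tnfrsf18 -0.19 and Adam17 0.11. With a library left out the log2 fold changes ran from -0.70 to 0.51 for Tnf, -0.59 to 0.96 for Tnfsf10, -1.16 to 1.62 for Tnfsf4, -2.48 to 1.34 for Cd70, -0.22 to 0.43 for Tnfrsf13b, -1.11 to 0.058 for Tnfrsf10b, -0.29 to 0.12 for Tnfrsf22, -0.19 to 0.37 for Tnfrsf18, -0.39 to 0.85 for Tnfrsf13c, -0.47 to 0.25 for Tnfrsf4, -0.50 to 0.35 for Tnfrsf25, -0.74 to 1.02 for Cd40, -0.23 to 0.17 for Adam17 and -0.037 to 0.34 for Nfkb2. Other values kept their sign with a library left out but moved by over 1.5 times. They ran from 0.37 to 0.75 for Tnfsf9, 0.0054 to 0.68 for Tnfsf12, -0.43 to -0.03 for Tnfrsf1a and -0.27 to -0.027 for Tnfrsf1b. The ranges were 0.011 to 1.25 for Tnfrsf21, -2.11 to -0.21 for Tnfrsf11a and 0.16 to 0.88 for Tnfrsf12a. For the signalling genes Tnfaip3 and Traf1 they were -0.58 to -0.019 and 0.099 to 0.62. With 1 library left in a group, that library is assumed to vary like the other group. The cause of these changes was not tested. No paired analysis was possible because the 2 groups share no replicate number. The 9 members that the filter on low counts left out had at most 18 counts in any library. The main fit thus gives no value for differences in them.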
